A study of Homo sapiens with 2 samples.

Results

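The RAB small GTPases were taken as the genes named RAB plus a number, with an optional letter A to D and an optional digit, in the gene annotation of both array files. They made up 59 genes on 111 transcript rows, of 23595 genes on 42947 rows with a gene symbol. All 59 had a gene ID that matched the RefSeq table, from which current symbols were taken, so the genes listed as RAB2, RAB7, RAB19B and RAB39 appear as RAB2A, RAB7A, RAB19 and RAB39A. The samples were total RNA of Panc1, an established cell line from a human pancreatic ductal carcinoma. Per the labels, the cells were pretreated for 24 h with clofibrate or with DMSO, its solvent control. Clofibrate, a lipid-lowering drug of the fibrate class, is known as an activator of PPARalpha. Its dose is not given in the sources used here. There was 1 array for clofibrate and 1 for DMSO, so no test could be run and no difference has a replicate check. All differences below are log2 intensities, clofibrate minus DMSO.

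RAB proteins are switches on the membranes of the cell. Bound to GTP and anchored by prenyl tails, they recruit tethers, motors and coat proteins, and each tends to mark its own compartment, from the ER and Golgi through endosomes to lysosomes and secretory granules. Exchange factors (GEFs) load them with GTP, GTPase-activating proteins (GAPs) switch them off, and GDI keeps the inactive form soluble. In the pancreas they are best known from rodent acinar cells, where RAB3D and RAB27B sit on zymogen granules.

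Each transcript row was a summary of 3 probes for 45031 of 45033 rows, and 5000 random probes gave a background of 48.1 on the clofibrate array and 48.7 on the DMSO array (5.59 and 5.61 on the log2 scale). The median row read 402 on both. A gene's level was the mean of its rows, and genes whose average over the clofibrate and DMSO arrays reached 8.51, the midpoint of all genes, are called bright. Probes differ in how well they bind, so levels of different genes or rows are not ranked against each other. As a check of the labelled cell type, the epithelial keratins KRT8 and KRT18 and the mesenchymal filament gene VIM were bright, while the duct marker KRT19 read 5.12 with clofibrate and 5.65 with DMSO, about the level of the random probes. Over 32 markers of acinar, islet, blood, stromal, liver and endothelial cells, the median was 6.49 with clofibrate and 6.42 with DMSO, and 7 lay at or below the random probes on both arrays. Their part in any RAB value was not tested. In RNA from a whole culture, fewer cells of a kind and less RNA per cell cannot be told apart.

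Of the 59 RAB genes, 32 were bright and 27 were dim. Of the dim ones, 7 had a single bright row (RAB6B, RAB14, RAB18, RAB22A, RAB23, RAB36 and RAB43). All rows of RAB33A, RAB38, RAB39A and RAB42 lay at or below the random probes on both arrays, so no difference can be read for these 4. So did 1 row each of RAB14 and RAB43. RAB7A, RAB1B and RAB1A, which act in most cell types, were among the bright genes.

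**Figure D1:**
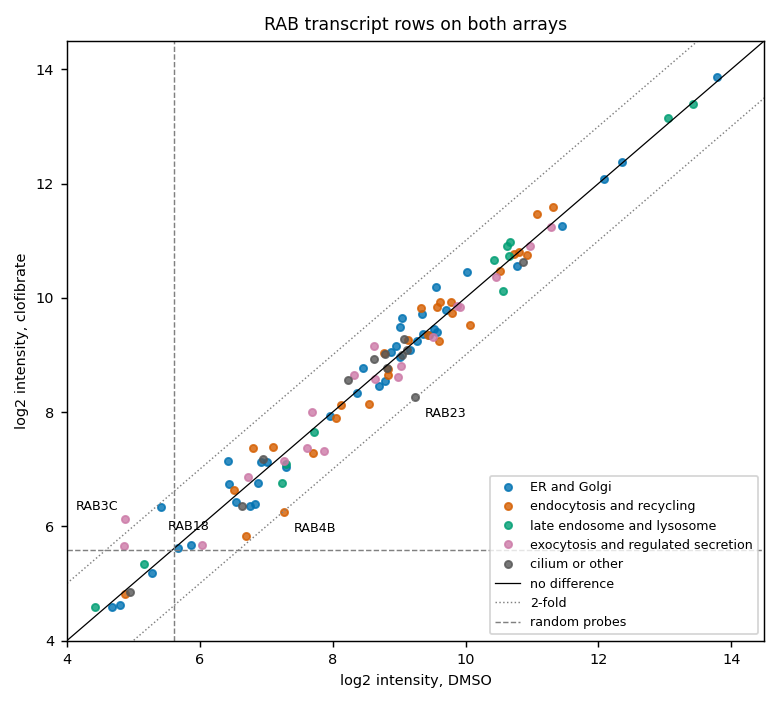
Log2 intensity of the 111 RAB transcript rows with clofibrate (vertical axis) and DMSO (horizontal axis), 1 point per row, coloured by the role group of the gene. Dashed lines mark the random probes of each array, the solid line no difference and dotted lines 2-fold; the points follow the solid line, and the rows beyond 2-fold are 1 of RAB3C and 1 of RAB4B.

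As a family the RAB genes differed little between the treatments. Of the 32 bright genes, 15 were higher and 17 lower with clofibrate, and the median difference was -0.02, beside 0.01 over all 11798 bright genes. Above 0 lay 52.1% of all bright genes. No bright RAB gene was 1.5-fold higher, a size reached by 1.31% of all bright genes, and none was 1.5-fold lower, reached by 1.32%. None was 2-fold different, against a background of 0.246%. Background shares this low give few or no genes in a set of 32, so the counts of 0 do not set the RAB genes apart. The differences of 27 of the 32 (84.4%) were under 1.2-fold, beside 72.8% of all bright genes. The SD was 0.22 over bright RAB genes and 0.26 over all bright genes.

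**Figure D2:**
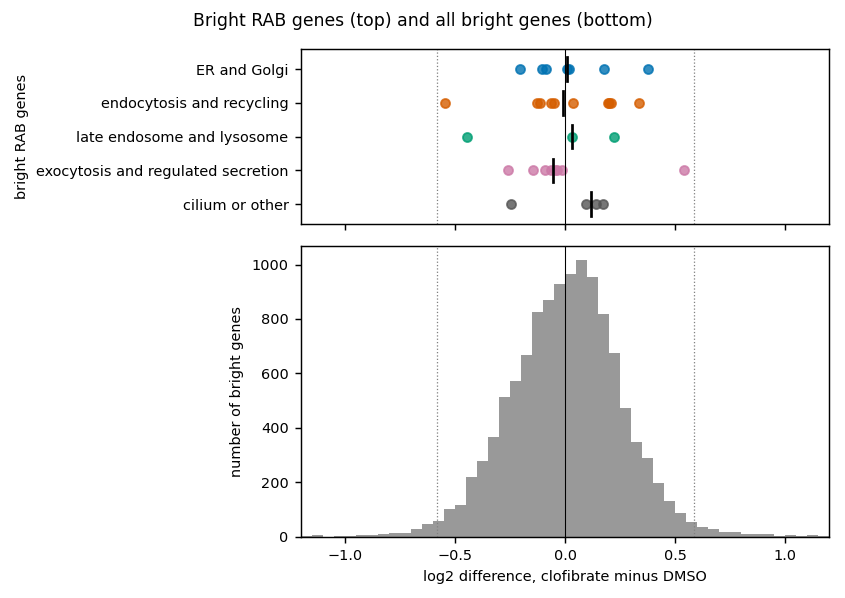
Top, the log2 difference (clofibrate minus DMSO) of the 32 bright RAB genes, 1 point per gene, by role group, with a black bar at each group's median; bottom, the number of all 11798 bright genes in bins of 0.05 on the same axis, which leaves out 11 genes beyond 1.2 on either side of 0. Dotted lines mark 1.5-fold, and every bright RAB gene lies between them.

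Many RAB genes rested on more than 1 row, which allows a rough check within the pair of arrays, although rows of a gene share the same RNA and may share probes. Of 21 bright RAB genes with 2 or more rows, 6 had every row above 0, 8 had every row below 0 and 7 had rows on both sides. The share with one direction was 66.7%, beside 51.0% of the 6323 bright genes with 2 or more rows. The median gap between the highest and lowest row was 0.15 in these RAB genes and 0.29 over all such genes. Both the share and the gap depend on the number of rows per gene, which was not matched. No RAB gene had more than 4 rows, while other bright genes could have more, such as RABGAP1L with 9. As a second yardstick, many values below are set beside the SD of the difference over all genes or rows of like level. Level was cut into 40 bins for this. That SD holds noise and true differences together and is not a replicate error. Among the 32 bright RAB genes, 27 lay within 1 such SD of 0, a larger share than the 70.3% of all bright genes. RAB11A was the 1 bright RAB gene beyond 2 such SDs, as were 4.48% of all bright genes.

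The bright RAB genes furthest from 0 were RAB11A and RAB3D. RAB11A, which directs traffic through the recycling endosome back to the cell surface, read 9.52 with clofibrate and 10.07 with DMSO, a difference of -0.54 (1.46-fold lower). It rested on 1 row (NM_004663, chromosome 15, 63948849 to 63968846, hg18), and its like-level SD was 0.25. RAB3D, a secretory granule RAB, read 9.16 with clofibrate and 8.62 with DMSO, a difference of 0.54 (1.45-fold higher). It too had 1 row (NM_004283, chromosome 19, 11296092 to 11311321), with a like-level SD of 0.30. Next on the lower side was RAB9A, which takes part in the return of mannose 6-phosphate receptors from late endosomes to the Golgi: its 1 row read 10.12 with clofibrate and 10.56 with DMSO, a difference of -0.44 (1.36-fold lower, like-level SD 0.22; NM_004251, chromosome X, 13617261 to 13637685). On the higher side RAB34 and RAB5C followed, at 0.37 and 0.33, both with every row above 0.

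The bases upstream of the start of RAB11A, RAB9A, RAB3D and RAB5C are given because PPARalpha, the receptor clofibrate is known to activate, binds DNA. Those of RAB34 are not shown. They come from RefSeq (GRCh38.p14, another build than the hg18 of the array files), run 5′ to 3′ along the gene's strand and cover the 250 bases before the annotated start. RAB11B is set beside RAB11A as its closest relative, and each gene shown has 1 start in the table. Capitals mark the GC box GGGCGG or its reverse complement CCGCCC, overlapping copies included. They do not mark a PPAR element.
RAB11A (chr15:65869241-65869490, + strand): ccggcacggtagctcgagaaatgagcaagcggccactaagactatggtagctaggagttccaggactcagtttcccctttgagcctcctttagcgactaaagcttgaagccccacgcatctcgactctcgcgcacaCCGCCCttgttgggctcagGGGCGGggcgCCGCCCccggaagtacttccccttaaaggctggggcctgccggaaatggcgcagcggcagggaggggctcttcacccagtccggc
RAB11B (chr19:8390110-8390359, + strand): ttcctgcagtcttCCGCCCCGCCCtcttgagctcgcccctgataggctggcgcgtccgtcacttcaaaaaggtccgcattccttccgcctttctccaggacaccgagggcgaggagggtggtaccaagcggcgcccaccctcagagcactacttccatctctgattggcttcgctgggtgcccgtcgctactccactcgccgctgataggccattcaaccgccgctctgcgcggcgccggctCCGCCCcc
RAB9A (chrX:13688878-13689127, + strand): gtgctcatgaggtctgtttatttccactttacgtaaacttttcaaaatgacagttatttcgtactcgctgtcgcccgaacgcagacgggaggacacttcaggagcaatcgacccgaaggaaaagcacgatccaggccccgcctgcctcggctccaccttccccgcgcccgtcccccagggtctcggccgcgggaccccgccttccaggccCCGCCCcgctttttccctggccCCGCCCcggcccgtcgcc
RAB3D (chr19:11339658-11339907, - strand): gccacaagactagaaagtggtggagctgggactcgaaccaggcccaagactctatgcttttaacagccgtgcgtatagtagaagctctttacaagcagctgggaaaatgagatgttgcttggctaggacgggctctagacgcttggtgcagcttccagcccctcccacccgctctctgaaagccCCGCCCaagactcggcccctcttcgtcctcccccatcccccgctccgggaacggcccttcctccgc
RAB5C (chr17:42154990-42155239, - strand): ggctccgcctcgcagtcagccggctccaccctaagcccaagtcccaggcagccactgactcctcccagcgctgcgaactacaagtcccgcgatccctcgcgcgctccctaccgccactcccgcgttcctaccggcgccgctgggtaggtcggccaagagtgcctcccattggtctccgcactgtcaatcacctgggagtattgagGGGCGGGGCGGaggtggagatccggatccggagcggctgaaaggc
The PPAR type of element, a direct repeat of the nuclear receptor half-site AGGTCA with 1 base of any kind between the copies, was sought on both strands. It was in none of 67 upstream windows of the 47 RAB genes in the table and in 6 of all 35116 windows (0.0171%). A share this low gives 0 in nearly any set of 67 windows, so the 0 does not set the RAB genes apart. Elements that depart from these letters were not sought. The half-site alone, which the repeat contains, was in 4 of the 67 windows (RAB6C, RAB24, RAB27A and RAB40A), or 5.97%, against 12.1% of all windows. The GC box was in 74.6% of the RAB windows and 42.6% of all windows, and the median GC content was 65.6% for RAB genes and 58.0% for all windows. RAB11A (62.8% GC, 3 GC boxes), the bright gene furthest below 0, and RAB3D (59.6% GC, 1 GC box), the bright gene furthest above 0, both held the box, and the GC content of both was below the RAB median. All windows include those of non-coding genes, and these matches are letters in a window only.

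Among the RAB genes of the ER and Golgi, the core members were level. RAB1A, needed for ER to Golgi transport, had 3 rows that read 12.08, 13.87 and 8.96 with clofibrate and 12.09, 13.78 and 9.01 with DMSO. Its rows thus lay on both sides of 0, and their mean difference was 0.01. RAB1B, its close relative with the same role, read 12.38 with clofibrate and 12.36 with DMSO. The sign of RAB1A turned with quantile normalization, with loess and with the median of its rows, and that of RAB1B with loess and with the trend with gene span removed. For the 7 bright genes of the group, of 18 measured, the median was 0.01, with 4 higher and 3 lower.

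The ER and Golgi gene with the largest bright difference was RAB34, known for Golgi and lysosome positioning and for cilium assembly. Its 4 rows read 10.44, 10.19, 9.72 and 9.79 with clofibrate and 10.02, 9.56, 9.35 and 9.71 with DMSO. All 4 were higher with clofibrate, by 0.08 to 0.63, and the mean difference was 0.37 (1.30-fold; like-level SD 0.25; chromosome 17, 24065429 to 24069328). RAB2A and RAB2B, paralogs that act between the ER and the Golgi, stood on opposite sides of 0. RAB2A read 10.56 and 11.26 with clofibrate and 10.78 and 11.46 with DMSO, -0.20 as a mean of 2 rows. RAB2B had 4 rows between 0.00 and 0.32, with a mean of 0.18. Each of these values was under 1 like-level SD (0.22 for RAB2A and 0.30 for RAB2B).

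RAB6A, which runs retrograde traffic at the Golgi, had 4 rows, all below 0, from -0.18 to -0.03. RAB6C, a retrogene copy of RAB6A, was at -0.09. Its sequence is close to that of RAB6A, and its 2 rows are annotated to different places on chromosome 2, so its probes are open to cross-hybridisation. RAB6B, the RAB6 form known best from neurons, was dim as a mean of rows, but its RefSeq row read 9.65 with clofibrate and 9.05 with DMSO, a difference of 0.61 (1.52-fold; like-level SD of rows 0.32). Its other row read 7.13 with clofibrate and 7.02 with DMSO. RAB43 had its bright row at 0.46 (9.48 with clofibrate and 9.02 with DMSO), and 1 of its other rows is annotated to chromosome 22 while the rest lie on chromosome 3.

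RAB18, which acts at the ER and on lipid droplets, had rows that did not point one way. Its brightest row read 8.45 with clofibrate and 8.70 with DMSO (-0.25), the next read 6.36 with clofibrate and 6.76 with DMSO (-0.40), and the RefSeq row read 6.34 with clofibrate and 5.42 with DMSO (0.92). The last DMSO value was below the random probes, and against those probes that row read 1.66-fold higher with clofibrate (like-level SD of rows 0.62 on the log2 scale). Their mean was 0.09, a value that hides rows 1.32 apart. RAB41, a Golgi RAB, was dim and read 7.14 with clofibrate and 6.42 with DMSO on its 1 row, a difference of 0.72 with a like-level SD of 0.50. RAB19, RAB30, RAB33B, RAB36 and RAB39B were also dim, with mean differences between -0.29 and 0.05.

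**Figure D3:**
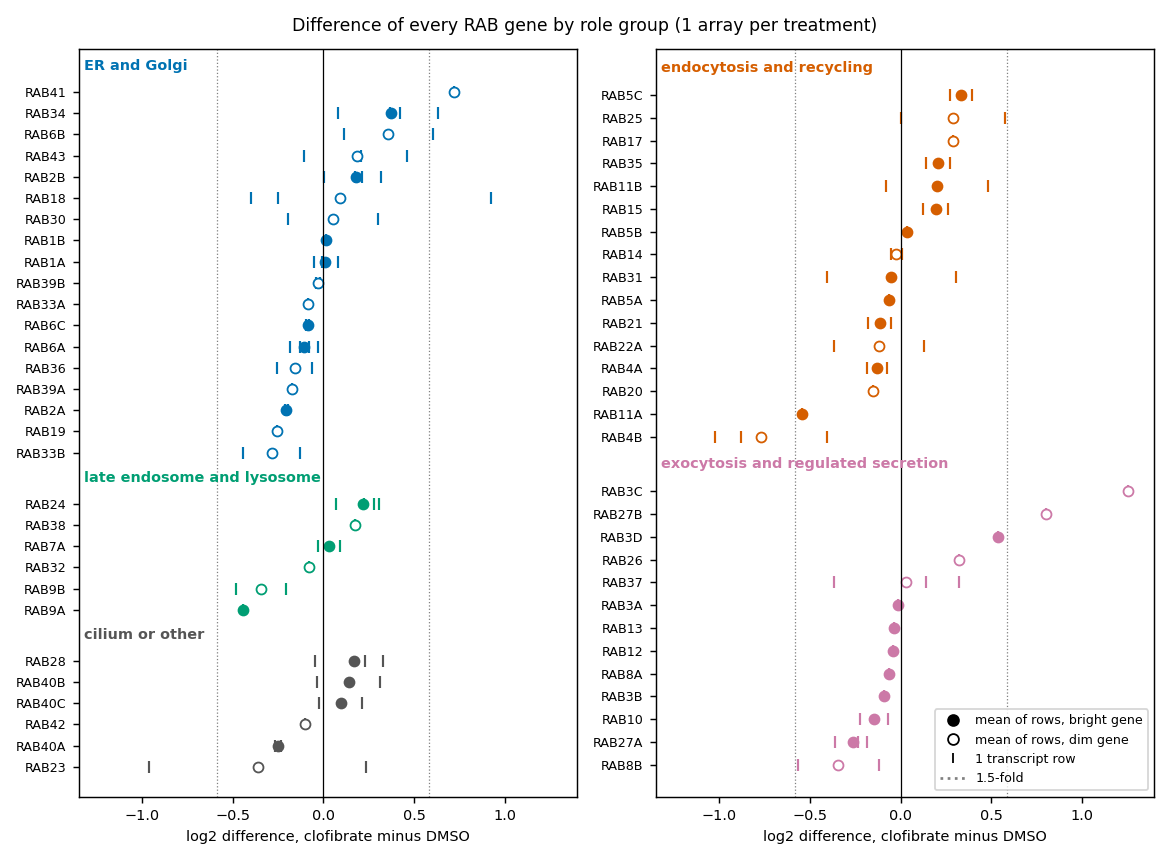
Log2 difference (clofibrate minus DMSO) of all 59 RAB genes, grouped by role and sorted within each group, with ticks for single transcript rows and circles for their mean (filled, bright; open, dim). Dotted lines mark 1.5-fold; no filled circle lies beyond them, and the open circles beyond them are RAB3C, RAB27B, RAB41 and RAB4B, of which RAB3C and RAB27B had DMSO values below the random probes.

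Early endosome and recycling genes included paralogs with unlike values. RAB5A, which drives fusion of early endosomes, read 9.73 with clofibrate and 9.79 with DMSO, a difference of -0.07. RAB5B read 10.77 with clofibrate and 10.73 with DMSO. RAB5C, the third form, had rows at 11.47 and 11.59 with clofibrate and 11.08 and 11.32 with DMSO. Both rows of RAB5C were higher with clofibrate, with a mean difference of 0.33 (1.26-fold; like-level SD 0.21; chromosome 17, 37530522 to 37560548).

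RAB11B, the close relative of RAB11A, read 9.82 and 9.35 with clofibrate and 9.34 and 9.43 with DMSO on its 2 rows. These differed by 0.48 and -0.08, a mean of 0.20, so the row that carries the higher value was not matched by the other. RAB25, the RAB11 form of epithelial cells, was dim: 1 row read 8.12 on both arrays, and the other 7.37 with clofibrate and 6.80 with DMSO. The 3 genes of the RAB11 subfamily thus gave -0.54, 0.20 and 0.29 (RAB11A, RAB11B and RAB25).

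RAB4B, one of the pair of fast recycling RABs, had the lowest mean difference of all 59 genes. Its 3 rows read 5.82, 6.24 and 7.29 with clofibrate and 6.70, 7.27 and 7.70 with DMSO. All 3 lay lower with clofibrate, by 0.88, 1.03 and 0.41 on the log2 scale, and the mean was -0.77 (1.71-fold lower; chromosome 19, 45976016 to 45994687). The gene was dim, with a like-level SD of 0.50. It is described here, as are RAB3C, RAB27B, RAB41 and RAB6B, because its value was seen to stand out. RAB4A was bright and read 8.66 and 8.76 with clofibrate and 8.84 and 8.83 with DMSO, a mean difference of -0.13.

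RAB35, which acts in rapid recycling and in cell division, had rows of 9.84 and 9.93 with clofibrate and 9.57 and 9.78 with DMSO, both higher, with a mean difference of 0.21. RAB15, another endocytic RAB, was at 0.19, also with both rows higher, and RAB21, which traffics integrins, was at -0.12 with both rows lower. RAB31 and RAB22A, relatives that link endosomes and the Golgi, had rows that disagreed in sign, from -0.41 to 0.30 and from -0.37 to 0.13. RAB14, a gene of endosome to Golgi traffic, read 10.81 with clofibrate and 10.80 with DMSO on its bright row. RAB17 and RAB20 were dim, at 0.29 and -0.15. Over the 10 bright genes of this group, 5 were higher and 5 lower, with a median of -0.01.

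Late endosome and lysosome genes were few. RAB7A, the main RAB of late endosomes and lysosomes, read 13.14 and 13.39 with clofibrate and 13.05 and 13.42 with DMSO. Its rows gave 0.09 and -0.03 and a mean of 0.03, whose sign turned with quantile normalization and with the brightest row. RAB24, linked to autophagy, had 4 rows that read 10.66, 10.91, 10.98 and 10.73 with clofibrate and 10.44, 10.63, 10.67 and 10.66 with DMSO. All 4 were higher with clofibrate, by 0.07 to 0.31, for a mean of 0.22 (1.17-fold; like-level SD 0.23). RAB9B, the paralog of RAB9A, was dim at -0.34 with both rows lower, so the pair lay on the same side of 0. RAB32, which acts in lysosome-related organelles, was dim and at -0.08. The 3 bright genes RAB7A, RAB9A and RAB24 had a median of 0.03.

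Of the 8 bright exocytosis and secretion genes, 7 were lower with clofibrate and RAB3D was the one that was higher. Most of these values were small, with a median of -0.05, and below 0 lay 47.9% of all bright genes. RAB27A, which docks secretory granules and exosome-bearing bodies at the plasma membrane, gave the lowest value among these 8. Its 3 rows read 9.32, 7.37 and 8.62 with clofibrate and 9.51, 7.61 and 8.98 with DMSO, all 3 lower, with a mean of -0.26 (1.2-fold lower; like-level SD 0.33). RAB10 and RAB8A, which carry cargo from the Golgi to the surface, were at -0.15 and -0.06. RAB13, a RAB of tight junctions, was at -0.04, as was RAB12. RAB3A and RAB3B, vesicle RABs of the same subfamily as RAB3D, were at -0.01 and -0.09.

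Among the dim genes of this group, RAB3C and RAB27B read higher with clofibrate, against DMSO values below the random probes. RAB3C, a RAB3 form known best from neurons, read 6.13 with clofibrate and 4.88 with DMSO on its 1 row, 2.38-fold as measured. The DMSO value lay below the random probes, and against those probes the row read 1.44-fold higher with clofibrate (NM_138453, chromosome 5, 57914695 to 58183163). Its like-level SD of rows was 0.53 on the log2 scale. RAB27B read 5.66 with clofibrate and 4.86 with DMSO, which gives 1.04-fold against the random probes. Its clofibrate value barely passed them. RAB26, another zymogen granule RAB, read 8.65 with clofibrate and 8.33 with DMSO, a difference of 0.32, and its mean lay just under the bright limit. RAB8B was at -0.34 with both rows lower, and RAB37, a granule RAB of mast cells, had rows from -0.37 to 0.32.

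With dim genes counted at their measured values, 3 of 59 RAB genes read 1.5-fold or more higher with clofibrate (RAB3C, RAB27B and RAB41), or 5.08%, against 4.53% of all measured genes counted the same way. Of these 3, RAB41 was the 1 that lay above the random probes on both arrays. The folds of RAB3C and RAB27B against the random probes, given above, do not reach 1.5-fold. RAB4B was the 1 gene at least 1.5-fold lower, or 1.69%, against 4.62%. RAB3C was the 1 gene with a measured value past 2-fold, as for 1.94% of all measured genes. Against the random probes its fold is below 2-fold. Counted by row, 2 of 66 bright RAB rows were at least 1.5-fold higher (1 of RAB34 and 1 of RAB6B), beside 2.24% of all bright rows, and 1 was at least 1.5-fold lower, beside 2.24% again. Each of these shares rests on 1 to 3 members.

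The single lower row belonged to RAB23, a RAB that restrains Hedgehog signalling and acts at the cilium. This row read 8.27 with clofibrate and 9.23 with DMSO, a difference of -0.96 (1.95-fold lower; like-level SD of rows 0.38; NM_016277, chromosome 6, 57161539 to 57195037). Its other row, which covers nearly the same stretch, read 7.18 with clofibrate and 6.95 with DMSO, a difference of 0.24. Their mean was -0.36, at a level that puts the gene among the dim ones. Of the genes set with RAB23 as ciliary or other, RAB28, a RAB of photoreceptor cilia, was at 0.17 with 2 rows higher and 1 lower. RAB40B and RAB40C, which pair a RAB domain with a ubiquitin ligase adaptor box, were at 0.14 and 0.10. RAB40A, of the same kind, was at -0.25 with both rows lower (10.63 and 6.36 with clofibrate, 10.86 and 6.63 with DMSO). Over the 4 bright genes of this group the median was 0.12, which changed sign with the brightest row of each gene and with dim genes included.

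The machinery that prenylates and carries RAB proteins was read from a list of 15 genes, of which 12 were bright, 6 higher and 6 lower. The list median was -0.01, and none was 1.5-fold different. The 2 subunits of the enzyme that attaches the prenyl groups lay on opposite sides of 0. RABGGTA read 9.72 with clofibrate and 9.40 with DMSO (0.32), and RABGGTB read 11.59 with clofibrate and 11.98 with DMSO (-0.38). RABAC1, a RAB acceptor at the Golgi, was the highest of the bright genes on the list at 0.36 with both rows higher, and YIPF5, a Golgi membrane protein that binds RABs, the lowest of the bright genes at -0.42 with all 4 rows lower. The dim genes RABIF, CHML and CHM read -0.54, -0.49 and -0.48, with like-level SDs of 0.36, 0.35 and 0.45. The 2 rows of RABIF were at -1.01 and -0.07, and CHML had 1 row. The 3 rows of CHM ran from -1.33 to 0.26, on both sides of 0.

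Of 30 bright exchange factors, 18 lay above 0, with a median of 0.07, beside 52.1% of all bright genes above 0. SBF1, a DENN-domain protein, read 10.22 with clofibrate and 9.65 with DMSO (0.57), and MON1A, a subunit of the exchange factor for RAB7, was at 0.51 with both rows higher. GAPVD1, an exchange factor for RAB5, read 9.19 with clofibrate and 9.77 with DMSO (-0.58), and TRAPPC6B, a subunit of the TRAPP tethering complex, was at -0.40. None reached 1.5-fold. The GTPase-activating proteins had 11 of 25 bright genes above 0 and a median of -0.02, also with none at 1.5-fold. SGSM3 was at 0.46 with all 3 rows higher. TBC1D13 was at 0.29, from rows at 0.02 and 0.56. TBC1D16 and TBC1D4, the second known for its role in insulin-driven glucose uptake, were both at -0.44.

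Effectors, the proteins that bind the active form, included the bright genes of these lists that passed 1.5-fold. Of 41 bright effector genes, 20 were higher and 21 lower, with a median of -0.01, and 3 were at least 1.5-fold lower: APPL1, INPP5B and EXOC4. None was 1.5-fold higher. The share of all bright genes at least 1.5-fold lower was 1.32%, as above. This count of effectors was not recomputed under other processing. The bright effector genes had a median genomic span of 45.7 kb, beside 15.5 kb over all bright genes. Longer genes read lower in general, as described below, and the part of span in the count was not tested. APPL1, an adaptor on RAB5 endosomes, had 1 row at 11.91 with clofibrate and 12.03 with DMSO and 1 at 8.02 with clofibrate and 9.58 with DMSO. The large difference, -1.56, was thus in the dimmer row, and the brighter one gave -0.12. INPP5B, an inositol phosphatase that binds RABs, had rows at -0.97, -0.86 and -0.27. EXOC4, a subunit of the exocyst that tethers vesicles at the plasma membrane, had rows at -1.06, -0.65 and -0.14. All rows of these 3 genes were lower with clofibrate, and the like-level SDs of the means were 0.22 for APPL1, 0.33 for INPP5B and 0.30 for EXOC4.

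Over all bright genes, those of longer genomic span read lower with clofibrate (Spearman -0.182 across 11798 genes, which are not replicates). Over the 32 bright RAB genes the same description gave -0.264, across genes measured on the same 2 arrays. The 11 RAB genes of shortest span (1.96 to 17.9 kb) had a median difference of 0.02, the middle 10 (20.0 to 38.2 kb) one of -0.06, and the 11 longest (38.5 to 153 kb) one of -0.05. RAB34 and RAB24, both higher, spanned 3.73 and 2.22 kb, and RAB27A and RAB2A, both lower, 65.6 and 104 kb. RAB28, with 117 kb and a difference of 0.17, went the other way. So did RAB40A at -0.25, if its span is taken as 10.3 kb. That span is the median of rows of 0.886 and 19.7 kb. RAB11A, RAB9A and RAB3D, the bright genes furthest from 0, spanned 20.0, 20.4 and 15.2 kb. With the trend over all genes removed, RAB11A, RAB9A and RAB3D were at -0.56, -0.46 and 0.50. RAB10 and RAB2A came nearer to 0 with the trend removed, at -0.064 and -0.12.

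**Figure D4:**
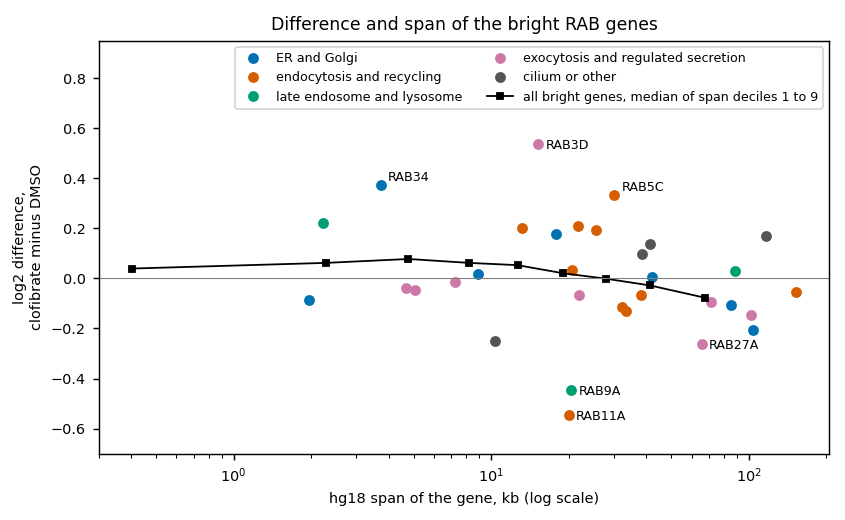
Log2 difference (clofibrate minus DMSO) of the 32 bright RAB genes against their hg18 span in kb (log scale), coloured by role group. The black line joins the median difference of all bright genes in span deciles 1 to 9, each at the geometric mean of its limits, and declines from middle to long spans; RAB11A, RAB9A and RAB3D stand well off it.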

How the data were processed

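Total RNA of Panc1 cells was labelled with Cy3 and hybridised to 1-colour NimbleGen arrays, 1 for clofibrate and 1 for DMSO, per the labels. The deposited files hold 1 linear intensity per transcript row. Per the submitters' processing notes, RMA made these values, and the coordinates are hg18, per the file headers. RMA corrects background, evens out the arrays and summarises the probes of a row, so part of any global shift is already removed. The series matrix held the same values. A column of standard errors, whose definition is not given in the sources used here, was not used.

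Log2 of each deposited intensity was taken, rows were named through gene ID and RefSeq (38916 of 42947 rows with a symbol matched), and the rows of a gene were averaged. With 1 array per treatment no test, p-value or replicate standard error was computed, and the precision is limited by the number of arrays. Folds of 1.5 and 2 mark the size of a difference. Where 1 array was at or below its 5000 random probes, the fold against them is given. A row of 3 probes can itself read below the random probes, as that of RAB33A did on both arrays. Such a fold is thus not a firm lower limit. Members, role groups and gene lists were chosen with earlier results of these data known. The 6 highest and 6 lowest bright RAB genes, 6 textbook members and genes with rows 1 or more log2 units apart were described by rule. The regulator and effector lists were searched through current symbols, and 67 of 68 effector entries matched; the other, ZFYVE20, is an older symbol of RBSN, which matched. Upstream sequence was available for 47 of 59 RAB genes. Alternatives were median centring, quantile normalization, cyclic loess, the brightest or median row, other level filters, removal of a loess trend on gene span (fraction 0.3) and the series matrix. One more, without rows at or below the random probes on both arrays, was chosen after seeing the data. The calculations were tested on simulated data. The tools were R 4.3.3 with limma 3.58.1 and Python 3.11.15 with matplotlib 3.10.9, statsmodels 0.14.6, scipy 1.17.1, pandas 2.3.3 and numpy 2.4.6.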

Additional observations from a re-analysis of the deposited data

How the results depend on the processing

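The RAB median stayed between -0.03 and 0.01 over 11 alternatives, and was above 0 in 1 of them, where rows at or below the random probes on both arrays were left out (0.01, 29 bright members). Of 345 values recomputed, 330 moved by less than a spread used as a yardstick or, for counts, by no more than 1.5 times. The other 15 moved by more. Of these 15, the GAP median, the median of ciliary or other RABs and RAB18 also changed sign. For a gene the spread was its like-level SD. For a median it was a spread over all bright genes, made smaller with the number of genes, as in a standard error. Genes are not replicates, so this spread only sorts the values. Values from the series matrix could not move, as they were the same as the main ones. With no filter on level, 27 of 59 members were above 0, 3 read at least 1.5-fold higher, 1 was at least 1.5-fold lower and 1 was at least 2-fold different, and the medians were -0.088 for GAPs and -0.19 for prenylation and GDI. With the 75th percentile as filter, 6 of 12 members were above 0 and the GAP median was -0.088. These filters change which genes are counted. With the brightest row of each gene, 1 member was at least 1.5-fold higher, and the medians were 0.047 for GAPs, -0.092 for effectors and -0.048 for ciliary or other RABs; RAB11B was at 0.48 and RAB23 at -0.96. RAB18 was at -0.40 with the median of its rows. Beyond the choice of row or filter, the cause was not tested. RAB11A ranged from -0.56 to -0.54, RAB9A from -0.46 to -0.44, RAB3D from 0.50 to 0.54, RAB34 from 0.31 to 0.42, RAB5C from 0.27 to 0.34 and RAB27A from -0.36 to -0.19. RAB11A, RAB9A and RAB3D have 1 row each, so alternatives that choose or drop rows could not move them. The level filters were not applied to single genes. The narrow ranges of these 3 thus cover only normalization and the span trend. The medians of the ER and Golgi, endocytosis, late endosome, effector and prenylation groups also changed sign under some alternatives. No paired analysis was possible because clofibrate and DMSO had a single array each, which also means that neither could be left out. Genes near the random probes, 1 of them RAB27B, are measured with little signal over background.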

Other observations

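RAB29, a RAB of the trans-Golgi and lysosome, is listed in the array files under an older name outside the naming rule and was not counted among the 59 genes. Its rows read 9.93 and 9.08 with clofibrate and 10.30 and 8.91 with DMSO, differences of -0.37 and 0.16. The rows thus lay on opposite sides of 0.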
